A study of Mus musculus with 6 samples.

Results

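The genes described here are those that code for potassium channels and their subunits in adult mouse brain. They are the rows of the deposited table of retained genes whose symbol starts with Kcn, without *Kcna1* and *Kcnj13*, and they number 71 of 13891 genes. The table keeps genes with at least 2 CPM (counts scaled to a common library total) in any 3 of the 6 libraries, and the count table behind it held 97 Kcn symbols, of which 24 did not reach that level. RNA from whole brain of male C57BL/6 mice aged 12 weeks was depleted of ribosomal RNA and sequenced, with 3 mice per genotype. Mice of both genotypes were *Ifih1*-/- and therefore lacked MDA5, the cytoplasmic sensor of double-stranded RNA. They differed at *Adar1*: the *Adar1* E861A/E861A *Ifih1*-/- mice (E861A below) carried on both alleles a germline point mutation after which ADAR1 protein is made but cannot edit RNA, and the *Adar1*+/+ *Ifih1*-/- mice (wild type below) kept it. The comparison asks whether potassium channel transcripts differ in level between brains with and without this activity. In whole-tissue RNA, fewer cells of a type and less RNA per cell cannot be told apart.

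Potassium channels let potassium leave the cell along its gradient, which sets the resting potential and ends the action potential. Most voltage-gated channels are tetramers of subunits that each carry a voltage sensor and a pore loop. Silent subunits have the pore loop but need a partner to form a channel, and cytoplasmic or membrane-spanning auxiliary subunits change how the channel opens or where it goes. Inward rectifiers hold the membrane near rest and in glia clear potassium from around neurons, 2-pore-domain channels carry leak current, and channels opened by calcium or sodium follow firing. By these roles the 71 genes comprised 51 subunits that form channels, 8 silent subunits and 12 auxiliary genes, in 21 symbol prefixes from Kcna to Kcnv.

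The pore loop holds the selectivity filter, a stretch of 5 residues that strips water from the ion. A search of the coding sequences (GENCODE vM1 on NCBIM37, mm9) found it once in 42 of the 51 channel-forming genes and in each of the 8 silent subunits, 2 times in each of the 9 Kcnk genes, which code for 2 pore loops in 1 chain, and in 0 of the 12 auxiliary genes. The fourth residue was tyrosine in 45, phenylalanine in 21 and leucine in 2 of the 68 filters. The search pattern allowed only these residues at that place, so others could not be found. The filter is shown for the silent subunit and the channel genes described with per-library values and tests below, from among those with the smallest p-values. Each window is 30 coding bases, 5′ to 3′ on the coding strand, with the 15 bases of the filter in capitals.
Kcnv1, chr15:44940829-44940858, minus strand, exon 3 of 3: tccatgactACAGTAGGATATGGGgacatt
Kcnt2, chr1:142321846-142321875, plus strand, exon 9 of 28: acattttctACTGTGGGCTTTGGGgatgtc
Kcnh3, chr15:99063351-99063380, plus strand, exon 8 of 15: agtctcaccAGTGTGGGCTTCGGCaacgtg
Kcnh7, chr2:62615394-62615423, minus strand, exon 8 of 16: agtctaaccAGTGTAGGATTTGGAaatgtg
Kcnn1, chr8:73374550-73374579, minus strand, exon 5 of 10: accttcttgTCCATTGGCTATGGAgacatg
Of the 71 genes, 65 shared no stretch of 75 bases, the length of a read, with a transcript of another coding gene. The largest share was in *Kcna5*, with 0.99% of its windows found also in *Kcna6*. Exons of genes among which are *Kcna6*, *Kcnab3*, *Kcnd3*, *Kcnh7*, *Kcnj3*, *Kcnmb4* and *Kcnq5* overlap those of a gene on the opposite strand, and *Kcnab2* overlaps *Gm16334* on its own strand, so their counts are uncertain to that extent.

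The libraries held 26853488 to 38076753 counts, and the 71 genes took 0.4209% to 0.4483% of the counts of retained genes. Transcripts that define neurons, astrocytes and oligodendrocytes were present in every library, with *Snap25* at 1727 to 1808 CPM, *Aqp4* at 185 to 223 CPM and *Mbp* at 1694 to 1754 CPM. E861A replicate 1 stood apart in pituitary markers, which summed to 441.5 CPM there against 1.3 to 2.6 CPM in wild type. The same library was lowest in thalamus markers, with a summed level of 174.4 CPM against 220.3 to 236.7 CPM in wild type. Values with single libraries left out are given below for some genes only.

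Levels can be compared between genes only per length, and for this CPM were divided by the exon length of each gene in kilobases (RPKM). *Kcnj10*, the glial inward rectifier, had the highest level, with 48.1 ± 1.54 RPKM in E861A and 48.6 ± 2.21 RPKM in wild type (SD, n = 3 each). *Kcnma1*, the large-conductance calcium-activated channel, followed with 45.5 ± 0.402 and 43.4 ± 1.39 RPKM, and *Kcna2*, an axonal channel that opens at low voltage, with 40.3 ± 1.21 and 41.6 ± 1.79 RPKM. *Kcnj10* stood above *Kcnma1* by more than their SDs in both genotypes, while *Kcnma1* and *Kcna2* overlapped within 1 SD in wild type. *Kcnab2*, *Kcnd2*, *Kcnk1*, *Kcnq3*, *Kcnc1* and *Kcnip4* were among those that came next, between 38.4 and 24.6 RPKM over all libraries. The top 10 genes held 40.7% of the summed level, 33 genes were above 10 RPKM and 5 were below 1 RPKM. The lowest was *Kcnu1*, a calcium-insensitive relative of *Kcnma1* known from sperm, at 0.592 RPKM.

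**Figure D1:**
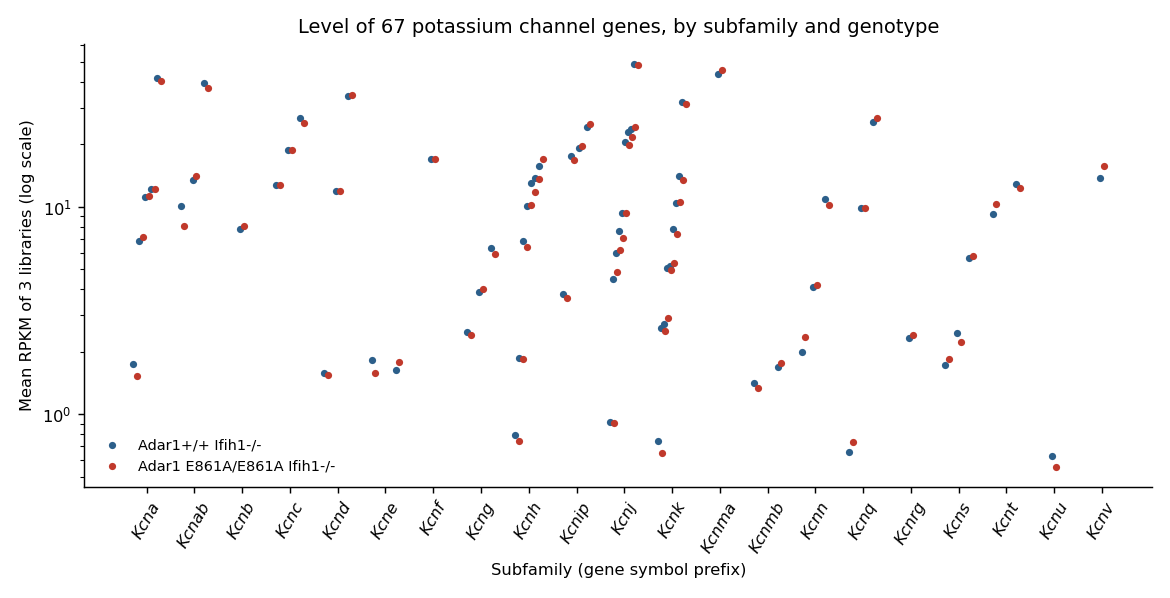
Mean level of 67 potassium channel genes, in RPKM on a log axis, by symbol prefix, in wild type (blue) and E861A (red), with 3 libraries per genotype and no error bars. The levels run from 0.592 RPKM (*Kcnu1*) to 48.4 RPKM (*Kcnj10*), and the colours of a gene lie close together in every prefix.

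By prefix, Kcnj genes held 16.53% of the summed RPKM, Kcnc genes 10.96%, Kcnk genes 9.21% and Kcna genes 8.42%. By role, channel-forming genes held 78.16%, auxiliary genes 15.58% and silent subunits 6.25%. The summed level of all 71 genes was 860 ± 25.1 RPKM in E861A and 871 ± 16.2 RPKM in wild type (SD, n = 3 each), and these ranges overlap within 1 SD. In silent subunits the sums were 55.0 ± 1.03 and 53.2 ± 0.265 RPKM, which do not overlap within 1 SD. *Kcnv1* alone differed by more than these sums did, with 15.8 ± 0.687 RPKM in E861A and 13.7 ± 0.365 RPKM in wild type. The auxiliary genes summed to 133 ± 4.55 and 136 ± 2.00 RPKM.

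No potassium channel gene passed the test. In edgeR's quasi-likelihood test, with p-values adjusted over all 13891 genes by the Benjamini-Hochberg method, 0 of 71 genes had an adjusted p under 0.05, where 0.497% of all genes did (69 genes). At an unadjusted p under 0.05 there were 8 of the 71 genes, against 8.75% of all genes, so this share was near the background. The likelihood ratio test called 2, *Kcnab3* among them (background 0.95%), DESeq2 called 1 (*Kcnab3*; background 0.59%) and limma-voom called 0 (background 0.49%). With the replicate number as a block, edgeR called 2 genes, *Kcnab3* among them, both lower in E861A, where 0.389% of all genes were called lower. That background counts 1 direction only, unlike the others in this paragraph, and cannot be set beside them. A fit on the 19366 genes kept by edgeR's own filter called *Kcnab3* (background 0.568%), and a fit with no filter called 3, *Kcnab3* among them (background 1.28%). Leaving out wild-type replicate 2 brought *Kcnab3* past the threshold (background 0.734%).

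The fold changes were small. The fitted change was positive in 31 and negative in 40 genes, or 43.7% positive against 49.6% of all genes, and its median was -0.0094 on the log2 scale against -0.00094 for all genes. Absolute changes were under 0.1 in 74.6% of the 71 genes and in 71.1% of all genes. Beyond 0.2 were 5 of the 71 genes, with *Kcnab3*, *Kcnn1* and *Kcne2* among them, against 8.4% of all genes, and 0 were beyond 0.5. The 95% interval of the change contained 0 in 63 genes. It lay within ±0.25 in 47 genes and within ±0.5 in 65. Half-widths ran from 0.0907 in the most precise gene to 0.4915 in the least precise, with a median of 0.1338.

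**Figure D2:**
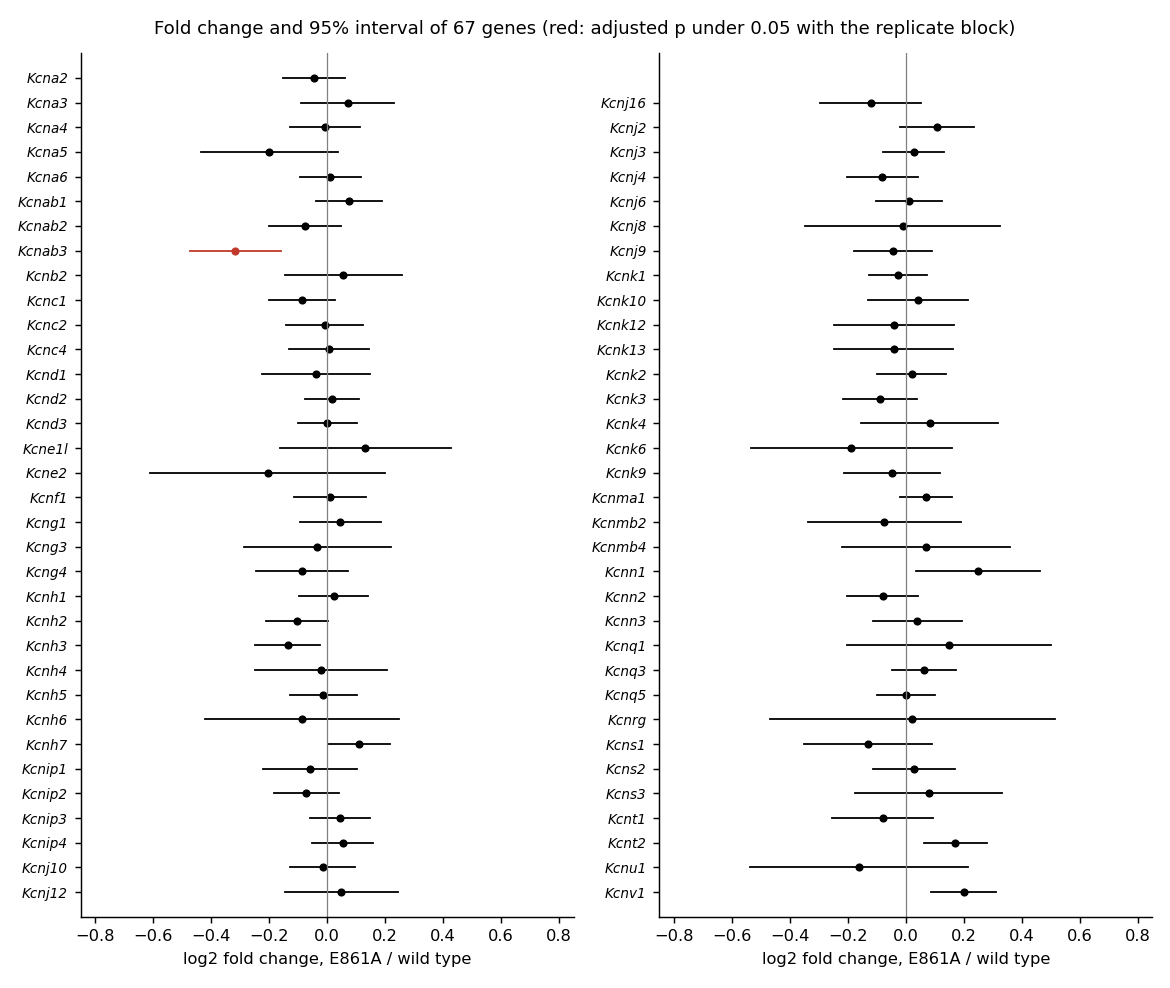
Fitted log2 fold change (E861A over wild type) with its 95% interval for 67 potassium channel genes, from edgeR's quasi-likelihood fit without a block on 3 libraries per genotype. *Kcnab3*, in red, had an adjusted p under 0.05 when the replicate number was a block, and 61 of the intervals drawn contain 0.

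Without a model, the 3 CPM values of 1 genotype all lay above those of the other in 10 genes. There were 4 higher in E861A (*Kcne1l*, *Kcnma1*, *Kcnt2* and *Kcnv1*), beside 6.9% of all genes, and 6 lower (with *Kcna5*, *Kcnab3*, *Kcnh2* and *Kcnh3* among them), beside 6.67% of all genes. Compared by shared replicate number, a description added after the values were seen, 9 genes (12.7%) were higher in E861A in 3 of 3 pairs, against 18.9% of all genes. Another 8 (11.3%) were lower in 3 of 3 pairs, against 17.5% of all genes. Neither share was above the background.

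**Figure D3:**
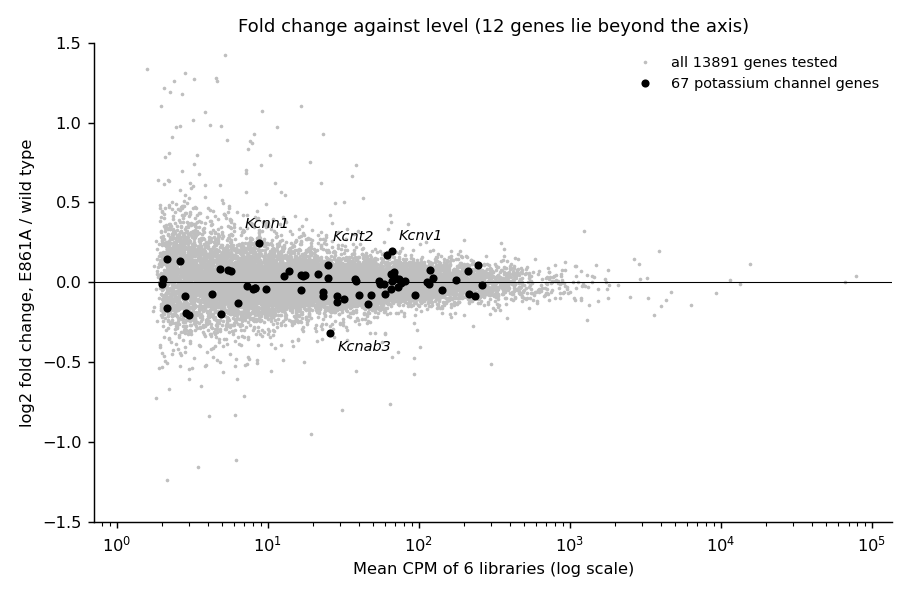
Fitted log2 fold change (E861A over wild type) against mean CPM of the 6 libraries on a log axis, for all 13891 genes tested (grey) and 67 potassium channel genes (black), with 12 genes beyond the vertical axis. The black points lie within the grey cloud, and *Kcnab3* (-0.32) and *Kcnn1* (0.25) mark their range.

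Among the voltage-gated channels, the Kcnc genes code for high-threshold channels that repolarise fast and let neurons fire at high rates. *Kcnc1* had a log2 fold change of -0.09 ± 0.05 (95% interval -0.20 to 0.03, edgeR adjusted p = 0.662), with 253, 216 and 221 CPM in E861A and 253, 233 and 248 CPM in wild type. These overlap. *Kcnc2* and *Kcnc4* were at -0.01 ± 0.06 and 0.01 ± 0.06.

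*Kcnab3* (ENSMUSG00000018470; chromosome 11, 69139760 to 69146544) codes for a cytoplasmic beta subunit of Kcna channels. It was at 24.0, 22.8 and 22.7 CPM in E861A and at 32.5, 25.5 and 28.7 CPM in wild type. The E861A libraries were tight and all lower, and wild-type replicate 2 was the nearest to them. The log2 fold change was -0.32 ± 0.07 (95% interval -0.47 to -0.16), the smallest p of the 71 genes, with an adjusted p of 0.105 in edgeR's quasi-likelihood test. The adjusted p was 0.027 with the replicate block, 0.0121 in the likelihood ratio test, 0.0469 in DESeq2 and 0.147 in limma-voom. Over the omission of single libraries it ran from 0.00849, without wild-type replicate 2, to 0.569, without E861A replicate 3. An opposite-strand transcript, *Kcnab3os*, overlaps its exons, and which strand was counted is not given in the sources used here. That transcript had 0, 3 and 0 counts in E861A and 5, 11 and 2 counts in wild type. Its own count does not measure how far the overlap changed the count of *Kcnab3*, and this was not tested. The other beta subunits differed less: *Kcnab2*, the most abundant, was at 215, 223 and 188 CPM in E861A against 217, 223 and 220 CPM in wild type (log2 fold change -0.08 ± 0.06), and *Kcnab1* had 0.07 ± 0.05.

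The Kcnq genes carry the slow current that acetylcholine suppresses. *Kcnq3* and *Kcnq5* had log2 fold changes of 0.06 ± 0.05 and -0.0008 ± 0.05. *Kcnq3*, the highest per length, was at 70.6, 72.5 and 67.2 CPM in E861A and 65.3, 67.6 and 68.7 CPM in wild type, and these overlap. *Kcnq1*, the cardiac member, was near the lower limit at 2.47, 1.97 and 2.36 CPM against 2.31, 1.74 and 2.06 CPM (0.15 ± 0.16).

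Markers of brain regions and cell types were read in the same fit. Brainstem markers summed to 53.5 to 60.2 CPM in E861A and 65.0 to 69.6 CPM in wild type. Of the 10 genes of that list 5 were retained and tested. The fitted change was negative in 5 of 5, where 49.6% of all genes had a positive change, and 0 were called. *Slc6a5*, *Glra1* and *Chat* were lower in E861A without overlap, beside 6.67% of all genes. Cerebellum markers summed to 657.7 to 742.8 CPM against 726.8 to 766.4 CPM, with 5 of 7 negative and 0 called without a block. With the block 1 of them, *Cbln3* of granule cells, was called lower (edgeR adjusted p = 0.00194). Interneuron markers did not share a direction: they summed to 840.0 to 910.6 CPM in E861A and 874.3 to 953.2 CPM in wild type, with 2 of 7 positive, 5 negative and 0 called without a block. The smallest p of that list was that of *Vip*, which was at 14.5 to 16.6 CPM in E861A and 12.0 to 13.1 CPM in wild type (log2 fold change 0.32 ± 0.07, edgeR adjusted p = 0.101) and was called higher with the block (edgeR adjusted p = 0.0471). *Pvalb*, the marker of fast-spiking interneurons, was at 52.2 to 59.3 CPM against 62.4 to 64.2 CPM (-0.16 ± 0.06, edgeR adjusted p = 0.407). Their part in the values of the channel genes was not tested.

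**Figure D4:**
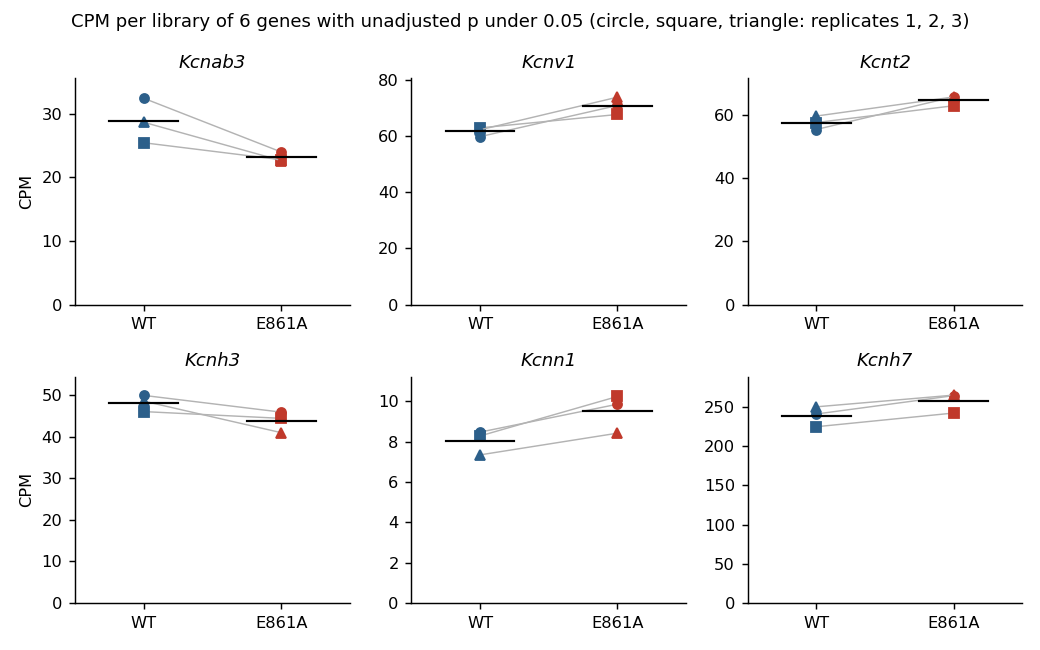
CPM in each library for 6 potassium channel genes with an unadjusted p under 0.05, in wild type (blue) and E861A (red). Grey lines join libraries with the same replicate number and black bars are genotype means. *Kcnab3* and *Kcnh3* are lower and *Kcnv1* and *Kcnt2* higher in E861A without overlap, while *Kcnn1* and *Kcnh7* overlap.

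Of the Kcna genes, which set the threshold for firing along axons, *Kcna2* was at 141, 142 and 134 CPM in E861A and 137, 145 and 149 CPM in wild type. These overlap (log2 fold change -0.05 ± 0.05, 95% interval -0.15 to 0.06). *Kcna5*, low in brain, was at 4.57, 4.51 and 4.61 CPM in E861A and 4.95, 5.36 and 5.41 CPM in wild type. All 3 E861A values were lower, with a log2 fold change of -0.20 ± 0.11 and an edgeR adjusted p of 0.632. *Kcna3*, *Kcna4* and *Kcna6* had 0.07, -0.01 and 0.01.

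The Kcnb genes code for the main somatic delayed rectifiers, and *Kcnb2* had 0.06 ± 0.09. The Kcnd genes carry the transient current of dendrites and had the narrowest range of changes of the prefixes with more than 1 gene, from -0.04 to 0.02. *Kcnd2* was at 188, 171 and 176 CPM in E861A and 178, 171 and 178 CPM in wild type, and the 95% interval of *Kcnd3* ran from -0.1018 to 0.1012. Their calcium-binding partners, the Kcnip genes, lay between -0.07 (*Kcnip2*) and 0.05 (*Kcnip4*). *Kcnip4* was at 64.5, 67.0 and 67.6 CPM in E861A and 64.6, 62.4 and 65.1 CPM in wild type, with overlap. *Kcnip1* and *Kcnip3* had -0.06 and 0.04.

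Silent subunits join Kcnb channels and shift their gating. *Kcnv1* (ENSMUSG00000022342; chromosome 15, 44937830 to 44946480), found mainly in forebrain neurons, was at 70.9, 67.7 and 73.9 CPM in E861A and 59.8, 63.0 and 62.3 CPM in wild type. All E861A libraries lay above all wild-type libraries, by 1.15-fold on average. The log2 fold change was 0.20 ± 0.05 (95% interval 0.09 to 0.31), with an adjusted p of 0.207 in edgeR's quasi-likelihood test and 0.0545 with the replicate block. *Kcnb2*, a channel it can join, did not show this separation. *Kcnf1* (79.4, 88.2 and 77.0 CPM against 82.3, 78.8 and 82.3 CPM), *Kcng4* (24.9, 22.7 and 20.1 against 24.8, 24.8 and 22.4 CPM) and *Kcns2* (23.6, 26.7 and 25.8 against 24.6, 24.6 and 25.6 CPM) overlapped between genotypes. The remaining silent subunits *Kcng1*, *Kcng3*, *Kcns1* and *Kcns3* ran from -0.13 (*Kcns1*) to 0.08 (*Kcns3*).

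The Kcnh genes code for the ether-a-go-go channels, whose filter holds phenylalanine at the fourth position. *Kcnh3*, of the forebrain Elk type, was at 45.9, 44.4 and 40.9 CPM in E861A and 49.9, 46.0 and 48.5 CPM in wild type. The groups did not overlap, by a margin of under 1 CPM (log2 fold change -0.14 ± 0.05, 95% interval -0.25 to -0.02, edgeR adjusted p = 0.479). *Kcnh7*, a neuronal gene of the Erg type, was at 264, 242 and 265 CPM in E861A and 241, 225 and 250 CPM in wild type. Its groups overlap, although E861A was higher in 3 of 3 same-numbered pairs (0.11 ± 0.05, 95% interval 0.0024 to 0.21, edgeR adjusted p = 0.564 and 0.135 with the block). Its exons overlap those of *Gca* on the opposite strand, a gene with 405 to 533 counts per library, and its value is uncertain for that reason. *Kcnh2*, the cardiac Erg channel, was at 31.5, 30.4 and 30.5 CPM against 33.6, 32.2 and 33.6 CPM (-0.11 ± 0.05, edgeR adjusted p = 0.574). *Kcnh1*, *Kcnh4*, *Kcnh5* and *Kcnh6* lay between -0.09 and 0.02.

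None of the 9 inward rectifiers separated by genotype. *Kcnj10* was at 251, 267 and 262 CPM in E861A and 250, 265 and 274 CPM in wild type, with a log2 fold change of -0.02 ± 0.05 (95% interval -0.13 to 0.10). Among markers of the astrocytes that hold it, *Slc1a2*, the main glutamate transporter, was at 4120 to 4281 CPM in E861A and 3507 to 3741 CPM in wild type. Its log2 fold change was 0.20 ± 0.06 (edgeR adjusted p = 0.257, and 0.0355 with the block). The mean log2 level of the astrocyte list overlapped between genotypes. Of the 7 astrocyte markers 7 had positive changes, with a median of 0.0128. Of these markers 0 were called without a block and 1, *Slc1a2*, with it. Their part in the value of *Kcnj10* was not tested. *Kcnj16*, which assembles with *Kcnj10*, had -0.12 ± 0.08. It lies 38196 bases from *Kcnj2*, which had 0.11 ± 0.06, so these neighbours had changes of opposite sign. The subunits of channels opened by G proteins, *Kcnj3*, *Kcnj6* and *Kcnj9*, had 0.03, 0.01 and -0.04. *Kcnj4* and *Kcnj12*, strong rectifiers of neurons, had -0.08 and 0.05, with *Kcnj12* at 20.2 CPM in E861A replicate 1 and 14.8 to 16.7 CPM in the other libraries. *Kcnj8*, the pore of the ATP-sensitive channel of pericytes, was near the lower limit at 2.09, 2.05 and 1.84 CPM against 2.00, 1.85 and 2.20 CPM (-0.01 ± 0.16).

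The 9 Kcnk leak channels lay between -0.19 (*Kcnk6*) and 0.08 (*Kcnk4*), and 0 had a smaller unadjusted p than 0.05. *Kcnk1*, the most abundant per length, was at 75.0, 70.9 and 70.3 CPM in E861A and 73.0, 74.4 and 72.7 CPM in wild type. Its 95% interval, -0.13 to 0.07, was among the narrowest. The acid-sensitive *Kcnk3* and *Kcnk9* had -0.09 ± 0.06 and -0.05 ± 0.08, and the stretch-sensitive *Kcnk2* and *Kcnk10* had 0.02 ± 0.06 and 0.04 ± 0.08. *Kcnk12* and *Kcnk13* both had -0.04.

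Among channels opened by calcium or sodium, *Kcnma1* was at 219, 216 and 215 CPM in E861A and 208, 199 and 212 CPM in wild type. The E861A libraries were all higher, by a margin of a few CPM (log2 fold change 0.07 ± 0.04, 95% interval -0.02 to 0.16, edgeR adjusted p = 0.668). Its auxiliary subunits *Kcnmb2* and *Kcnmb4* had -0.07 ± 0.12 and 0.07 ± 0.14, with *Kcnmb4*, the neuronal type, at 6.97, 5.54 and 5.09 CPM against 6.53, 4.75 and 5.52 CPM. *Kcnt2* (ENSMUSG00000052726; chromosome 1, 142142793 to 142508640), a sodium-activated channel, was at 65.8, 63.0 and 65.8 CPM in E861A and 55.5, 57.7 and 59.7 CPM in wild type. All E861A values were higher (0.17 ± 0.05, 95% interval 0.06 to 0.28), with an adjusted p of 0.288 in edgeR's quasi-likelihood test and 0.0822 with the replicate block. *Kcnt1*, which pairs with it, had a change of the other sign. Its values were 106, 80.0 and 90.7 CPM in E861A and 108, 87.4 and 96.5 CPM in wild type, so that libraries of the same number ran together and E861A was the lower in 3 of 3 pairs (-0.08 ± 0.08, and -0.08 ± 0.04 with the block, edgeR adjusted p = 0.337).

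The small-conductance channels of the Kcnn prefix shape the pause after a spike. *Kcnn1* was at 9.86, 10.2 and 8.42 CPM in E861A and 8.48, 8.29 and 7.35 CPM in wild type. The groups overlap by 1 pair of values, with E861A higher in 3 of 3 same-numbered pairs (log2 fold change 0.25 ± 0.10, 95% interval 0.03 to 0.46, edgeR adjusted p = 0.51). *Kcnn2*, the highest of the prefix per length, was at 39.4, 38.8 and 38.2 CPM in E861A and 41.0, 38.0 and 44.2 CPM in wild type (-0.08 ± 0.06), and *Kcnn3* had 0.04 ± 0.07. *Kcnu1* was near the lower limit at 2.13, 2.05 and 1.95 CPM against 2.84, 1.85 and 2.20 CPM (-0.16 ± 0.17).

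Of the remaining auxiliary genes, *Kcne1l* was at 2.65, 2.83 and 2.81 CPM in E861A and 2.59, 2.51 and 2.48 CPM in wild type, without overlap but by under 0.1 CPM between the nearest libraries (log2 fold change 0.13 ± 0.14, edgeR adjusted p = 0.823). *Kcne2*, abundant in choroid plexus, was at 1.95, 2.88 and 3.52 CPM against 2.89, 3.22 and 3.52 CPM (-0.21 ± 0.19). The lowest library, E861A replicate 1, was also the lowest in choroid plexus markers, which summed to 226.5 to 335.0 CPM in E861A and 392.9 to 413.8 CPM in wild type. Without that library, which is the lowest of the 6 for *Kcne2* itself, the change was -0.0026, and the part of these markers in the value of *Kcne2* was not tested. *Kcnrg*, which interferes with the assembly of Kcna channels, had the widest interval of the 71 genes, -0.47 to 0.51, with values of 2.40, 1.30 and 2.47 CPM against 2.31, 1.56 and 2.11 CPM. *Kcnd1*, the low member of its prefix, was at 7.70 to 8.40 CPM against 8.25 to 8.42 CPM.

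Genes that work with the channels were examined in the same fit. Of 28 tested partner subunits and anchors, 0 were called, with 11 positive and 17 negative changes and a median of -0.02. *Abcc9*, the sulfonylurea receptor that assembles with *Kcnj8* in pericytes, was at 8.43, 9.31 and 9.36 CPM in E861A and 11.8, 12.1 and 11.7 CPM in wild type. The groups were well apart (log2 fold change -0.39 ± 0.08), with an adjusted p of 0.076 in edgeR's quasi-likelihood test and 0.0347 with the replicate block, in which it was called lower. Pericyte markers summed to 115.2 to 132.8 CPM in E861A and 140.5 to 165.3 CPM in wild type, with 4 of 4 tested genes negative, 0 called without a block, and *Rgs5* without overlap and called lower with the block (edgeR adjusted p = 0.0382). Endothelium markers summed to 107.5 to 133.3 CPM against 135.7 to 165.1 CPM, with 6 of 6 negative and 0 called, and the part of either list in the value of *Abcc9* was not tested. The other partner gene chosen by its p, the axonal adhesion gene *Cntn2*, had -0.11 ± 0.05 (edgeR adjusted p = 0.558).

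The 4 HCN channels, which pass potassium and sodium at negative voltage and pace firing, had 0 called genes and lay around *Hcn2* (-0.06 ± 0.05) and *Hcn3* (0.17 ± 0.09). Of 14 pumps and cotransporters that set the potassium gradient, 0 were called, and 12 had negative changes with a median of -0.07. *Atp1b1*, a beta subunit of the sodium pump, was at 980, 1078 and 1018 CPM in E861A and 1097, 1092 and 1099 CPM in wild type. *Atp1b2*, its glial relative, was at 408, 407 and 364 CPM against 409, 431 and 425 CPM. Both were lower without overlap, with changes of -0.09 ± 0.05 and -0.10 ± 0.05 and edgeR adjusted p of 0.643 and 0.598.

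**Figure D5:**
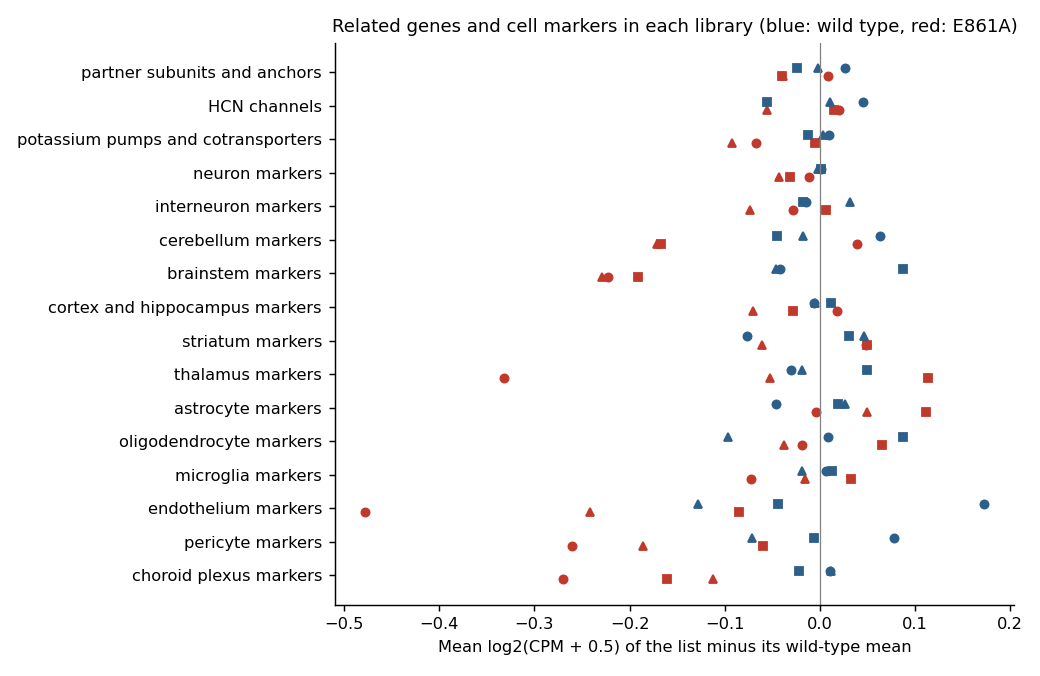
Mean log2(CPM + 0.5) of the tested genes of each related list and each marker list, in each library, relative to the mean of the wild-type libraries (blue: wild type, red: E861A; circle, square and triangle: replicates 1 to 3). Brainstem and choroid plexus markers lie lower in all 3 E861A libraries, and pericyte and endothelium markers overlap between genotypes on this scale. The neuron list stays within 0.1 of the wild-type mean but is also lower in all 3 E861A libraries (-0.0432 to -0.0113 against -0.0018 to 0.001).

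The 24 Kcn genes outside the retained table were low in both genotypes. The highest were *Kcnmb1* and *Kcnd3os*, an opposite-strand transcript of *Kcnd3*, each with 51 to 79 counts per library, followed by *Kcnj14* (37 to 66), *Kcnj5* (39 to 66) and *Kcnh8* (31 to 60). *Kcna10*, *Kcne1* and *Kcnj1*, known from kidney, inner ear and epithelia, had at most 3 counts in any library, and *Kcnk16*, known from pancreas, had 0 counts in all 6. These genes were not compared between genotypes here.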

How the data were processed

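Whole-brain libraries (3 per genotype, prepared with a strand-preserving kit) were sequenced as paired 75-base reads. The submitters' processing notes name Trimmomatic 0.36, STAR 2.5.2a and edgeR; the build was mm9 (NCBIM37). The authors deposited raw counts per gene from STAR, and the strand counted is not given in the sources used here. The authors also deposited CPM scaled to the counts of the retained genes, which the deposited counts gave back for 13891 of 13891 genes within 0.001. A deposited table of log2 fold change, average expression and false discovery rate from edgeR was not used. CPM printed per library are the deposited values, and RPKM used exon lengths from GENCODE vM1, where 37310 of 37310 identifiers matched.

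Counts of the 13891 genes were fitted in R 4.3.3 with edgeR 4.0.16 (TMM factors 0.9847 to 1.0213, quasi-likelihood, no covariates), and genes with an adjusted p under 0.05 are called. SE is the absolute log2 fold change divided by the square root of F. The fit was tested on simulated data. Alternatives were the likelihood ratio test, DESeq2 1.42.0, limma-voom 3.58.1, other scaling and filters, a block for the replicate number, and each library left out. Replicate numbers are shared between genotypes in the labels. Deviations from the genotype means correlated with r of 0.235, 0.35 and 0.117 for same-numbered libraries, all above 0.1. For libraries of different number r ran from -0.277 to 0.067. The number was therefore taken to pair same-numbered libraries, although no source states what pairs them. The mouse identifiers in the labels differ between genotypes. The pairing was thus inferred from the data under test, and calls made with the block depend on it. The block gave a smaller unadjusted p in 57 of the 71 potassium channel genes.

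Per-library values and statistics are given for genes called without or with the block, the 8 smallest p, the 5 largest positive and 5 largest negative changes, and the highest gene per length of each prefix. In related lists the 2 smallest p are given. The members and all lists were chosen with earlier results of these data known. Values of some of the 71 genes are not reported here, while counts cover all 71. Of the listed partner genes, *Kctd12* had no match. Filter motifs were sought with a fixed pattern in translated coding sequences. For each gene 1 transcript was used, that with the most matches, so the counts per gene depend on this choice.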

Additional observations from a re-analysis of the deposited data

How the results depend on the processing

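The count of potassium channel genes called was 0 in the reported fit and also under limma-voom, RLE size factors, no TMM and a CPM filter on 3 of 3 libraries of either genotype, which 4 of the 71 genes failed. It was 2 under the likelihood ratio test, 1 under DESeq2, 1 under filterByExpr, 3 with no filter and 2 with the replicate block, and 0 to 1 over the omission of single libraries (1 without wild-type replicate 2). In the related lists the count went from 0 to 1 (*Abcc9*) with the replicate block, the likelihood ratio test, filterByExpr and no filter. Among the marker genes the fit with the replicate block added calls for *Cbln3*, *Rgs5* and *Ttr* (lower in E861A) and *Slc1a2* and *Vip* (higher). It changed no other call among the genes reported. With the block 0.389% of all genes were called lower, and the share called higher was not counted, so these calls lack a full background. The calls with the block also depend on a pairing that was inferred from the same data. The count of genes without overlap, 10, was 15 to 17 when a library was left out, as 3 against 2 libraries separate more easily. It was 11 on TMM-scaled CPM, an alternative chosen after seeing the data. The share of all genes without overlap was not counted under these alternatives, so these counts lack a background. The median log2 fold change stayed between -0.0262 and 0.005 over all alternatives.

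Changes near 0 reversed sign without nearing the threshold. *Kcnf1* was at -7.26e-05 with no filter and *Kcnrg* at -0.0233 under limma-voom. Over omissions of single libraries the changes ran from -0.0083 to 0.037 in *Kcnd2*, -0.0616 to 0.0431 in *Kcnf1*, -0.0586 to 0.0218 in *Kcnj10*, -0.0543 to 0.185 in *Kcnmb4*, -0.137 to 0.286 in *Kcnrg*, -0.0218 to 0.0892 in *Kcns2*, -0.176 to 0.0073 in *Kcnt1* and -0.288 to 0.0104 in *Kcnu1*. The cause was not tested. With 3 libraries per genotype, changes under about the median half-width of 0.1338 could not be told from 0 in most genes. That width is from intervals without adjustment and is not the limit for a call. Larger changes, such as -0.32 in *Kcnab3* and 0.25 in *Kcnn1*, were not called in the reported fit.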
